A study of Mus musculus with 94 samples.

Results

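Microglia genes of the mouse brain were followed after a single injection of methylazoxymethanol (MAM). The list held 33 of the 18194 genes that the arrays measured with a probe set of their own, out of 45101 probe sets, and each gene was read from its single-gene probe set with the highest mean over all arrays. MAM is the DNA-alkylating agent released from cycasin, a toxin of cycad plants. The protein encoded by Mgmt, O-6-methylguanine-DNA methyltransferase, removes the methyl group that MAM leaves at the O-6 position of guanine. Male C57BL6 mice that lacked Mgmt (Mgmt-/-) or carried it (wt) were 11 weeks old, and each received MAM or vehicle by intraperitoneal injection. Brain RNA was hybridized 6, 24, 48 or 168 hr later, 1 mouse to an array, so that the 16 groups were Mgmt-/- MAM, Mgmt-/- vehicle, wt MAM and wt vehicle at each time. The groups held 6 mice each, except 5 each for Mgmt-/- MAM and wt MAM at 168 hr and for wt vehicle at 48 hr, which gave 93 arrays. The RNA came from brain tissue with all its cell types, so that fewer microglia and less RNA per microglial cell cannot be told apart in any value below.

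Microglia are the resident macrophages of the brain. In the undisturbed adult they are known by purinergic and fractalkine receptors with which they sense nucleotides and neuronal signals, by the complement C1q chains that they secrete, by surface proteins (Tmem119, Fcrls, Siglech) found on few other brain cells, and by the secreted protein Olfml3. Their survival depends on the receptor Csf1r, and their transcription on the factors Spi1 (PU.1), Irf8 and Sall1. When microglia respond to injury, several of the resting genes, P2ry12 first among them, are known to be turned down.

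PU.1 binds purine-rich DNA, and the promoters of 5 of the genes named in the results are shown for the letters GAGGAA and the overlapping GGAAGT, searched on both strands. RefSeq held a promoter for 24 of the 33 genes (build GRCm38.p6). In the windows of 300 bases, from 250 before to 50 after the start, GAGGAA stood in 17 of the 24 (70.8%), against 31.3% of 27025 genes. GGAAGT stood in 13 of the 24 (54.2%), against 26.5%, and either of the pair in 19 of the 24 (79.2%), against 47.0%. A match is a description of the letters and not of binding. The 250 bases before the start are printed 5′ to 3′ on the gene's strand, which was the minus strand for all 5, with the matches in capitals (ACTTCC and TTCCTC are the same letters read on the other strand). The windows are chr3:87263525-87263774 for Fcrls, chr3:59262986-59263235 for P2ry12, chr3:59210883-59211132 for P2ry13, chr4:136892915-136893164 for C1qc and chr3:103738002-103738251 for Olfml3, in which neither motif was found. The annotated genes Fcrls and C1qc begin at chr3:87263765 and chr4:136892936 on the minus strand, inside their windows. Their windows thus reach into the gene and stand before a start further downstream. Among genes not printed, Ly86 and Fcer1g also had neither motif in the 250 bases, and Siglech had GGAAGT.
Fcrls: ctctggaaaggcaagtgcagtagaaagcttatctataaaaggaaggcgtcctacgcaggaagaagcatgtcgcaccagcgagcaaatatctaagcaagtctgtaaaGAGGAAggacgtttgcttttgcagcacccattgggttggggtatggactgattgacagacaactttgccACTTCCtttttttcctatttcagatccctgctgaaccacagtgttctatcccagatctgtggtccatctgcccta
P2ry12: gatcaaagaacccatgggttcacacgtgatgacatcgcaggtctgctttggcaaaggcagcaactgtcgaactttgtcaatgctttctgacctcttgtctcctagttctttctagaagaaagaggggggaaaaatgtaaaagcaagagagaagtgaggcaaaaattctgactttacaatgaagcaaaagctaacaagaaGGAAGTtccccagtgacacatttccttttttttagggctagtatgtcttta
P2ry13: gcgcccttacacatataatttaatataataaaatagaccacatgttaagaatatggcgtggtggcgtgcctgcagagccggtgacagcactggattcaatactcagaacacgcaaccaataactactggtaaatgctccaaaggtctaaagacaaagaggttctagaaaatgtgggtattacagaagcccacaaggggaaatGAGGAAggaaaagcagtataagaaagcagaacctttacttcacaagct
C1qc: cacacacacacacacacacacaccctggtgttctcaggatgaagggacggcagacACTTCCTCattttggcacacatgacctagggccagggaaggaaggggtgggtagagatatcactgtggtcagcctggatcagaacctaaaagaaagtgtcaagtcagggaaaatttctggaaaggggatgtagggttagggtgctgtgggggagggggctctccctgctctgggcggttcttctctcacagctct
Olfml3: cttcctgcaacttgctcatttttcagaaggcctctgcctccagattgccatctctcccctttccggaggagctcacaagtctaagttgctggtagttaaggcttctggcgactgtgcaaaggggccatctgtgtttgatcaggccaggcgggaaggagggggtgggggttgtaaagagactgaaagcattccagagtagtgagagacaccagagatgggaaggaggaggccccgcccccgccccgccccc

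The values are log2 levels, and those of different probe sets were not set against each other. The probe sets of Irf8, Ptprc, Csf3r and Itgam had signals with means between 5.10 and 5.21 over the 93 arrays, so that small changes in these 4 may not be seen. Between the lowest and the highest of the 16 group means, P2ry12 spanned 1.35 on the log2 scale, Gpr34 1.03, Fcrls 0.84 and Laptm5 0.82. Ctss (cathepsin S, a lysosomal protease) spanned 0.23, Ltc4s 0.27, and Spi1 and Unc93b1 0.29 each. The lowest of the 16 group means was that of Mgmt-/- MAM at 168 hr for 11 of the 33 genes and that of Mgmt-/- vehicle at 6 hr for 9. The latter group was also the lowest for P2ry12, Gpr34 and Laptm5, and it held the arrays of mice A and B (described below), which stood apart. P2ry12 was at 4.60 and 4.78 on these arrays, against 7.73 to 8.01 on the rest of the group. The spans were not worked out without them.

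Most of the genes varied together within groups. Over the 93 arrays, after group and number set were taken out, the median correlation of the 528 gene pairs was 0.29 (range -0.52 to 0.84), and 420 pairs were above 0. The arrays share their RNA preparation and normalization, so that this is a description with no test. The closest pair was P2ry12 and Fcrls (r = 0.84). Without mice A and B this pair had r = 0.73, below C1qa and C1qb (0.76). The median over all pairs was then 0.27 (range -0.45 to 0.76), with 422 pairs above 0. Ly86 had the highest mean correlation with the other members (0.44), followed by Cd53 and Fcrls (0.41 each). Slco2b1, an organic anion transporter (-0.21), Csf3r (-0.08), Unc93b1 (0.00) and Spi1 (0.03) did not follow the rest. On an array of liver RNA (left out of all comparisons) P2ry12, Gpr34 and Fcrls stood at 4.38, 3.71 and 5.35, while Slco2b1 stood at 9.58 and Sall1 at 8.29, and 13 of the 33 genes, Slco2b1, Sall1, Fcer1g, Ptprc and Cd68 among them, stood above their highest brain value. The probe sets of these 13 genes are thus not particular to microglia.

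Several facts of the arrays bear on the results. The animal numbers fell into 2 sets, taken to be the 2 laboratories of the study, and number set was a term in each fit. The test was limma's moderated test at each time, and a gene was called at a Benjamini-Hochberg adjusted p under 0.05 and a fold change above 1.3, as long as it passed a filter on differences in response between number sets (F test p above 0.15). Of the 33 genes, 8, 17, 32 and 22 passed this number-set filter at 6, 24, 48 and 168 hr, against 36%, 45.4%, 81.2% and 71.1% of all genes, and values without the filter are given beside the calls. The Mgmt probe set stood at 5.70 ± 0.34 in Mgmt-/- MAM, 5.78 ± 0.23 in Mgmt-/- vehicle, 5.78 ± 0.17 in wt MAM and 5.75 ± 0.09 in wt vehicle brain at 168 hr (SD, n = 5, 6, 5 and 6). It did not separate the genotypes, and its place relative to the deletion is not stated in those sources that were read.

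The arrays of 2 mice, both Mgmt-/- vehicle at 6 hr in number set 2 (mice A and B in the plots), stood apart from all others in the microglia genes. P2ry12 was at 4.60 and 4.78 on these arrays, against 7.73 to 8.01 on the other 4 arrays of the group and a lowest value of 6.70 on the other 91. Gpr34, a lysophosphatidylserine receptor, was at 4.14 and 3.97, and Fcrls, an Fc receptor-like scavenger protein, at 5.99 and 6.01. Of the 33 genes, 22 were below the other 4 arrays of the group on both (66.7%, against 30.5% of all genes), and 13 were below all 91 other arrays (39.4%, against 4.13%). Trem2, the lipid-sensing receptor that activated microglia rely on, was not among them, at 6.35 and 6.38. On the same arrays the oligodendrocyte list had median levels of 8.81 and 8.40, against 9.44 to 9.62 on the other 4, and the list of glucocorticoid-responsive genes 8.70 and 9.27, against 8.14 to 8.21. The 3′/5′ RNA index (how far the 3′ control probe sets of Gapdh and beta-actin stood above the 5′ ones, as a mean log2 difference) was 0.441 and 0.43 on these arrays, within the range of 0.417 to 0.46 of the group. For comparisons at 6 hr that involve Mgmt-/- vehicle brain, the medians of the 33 differences are given with and without these 2 arrays. Values of single genes are given without them only where stated, and those of genes outside the 33 with all arrays alone.

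**Figure D1:**
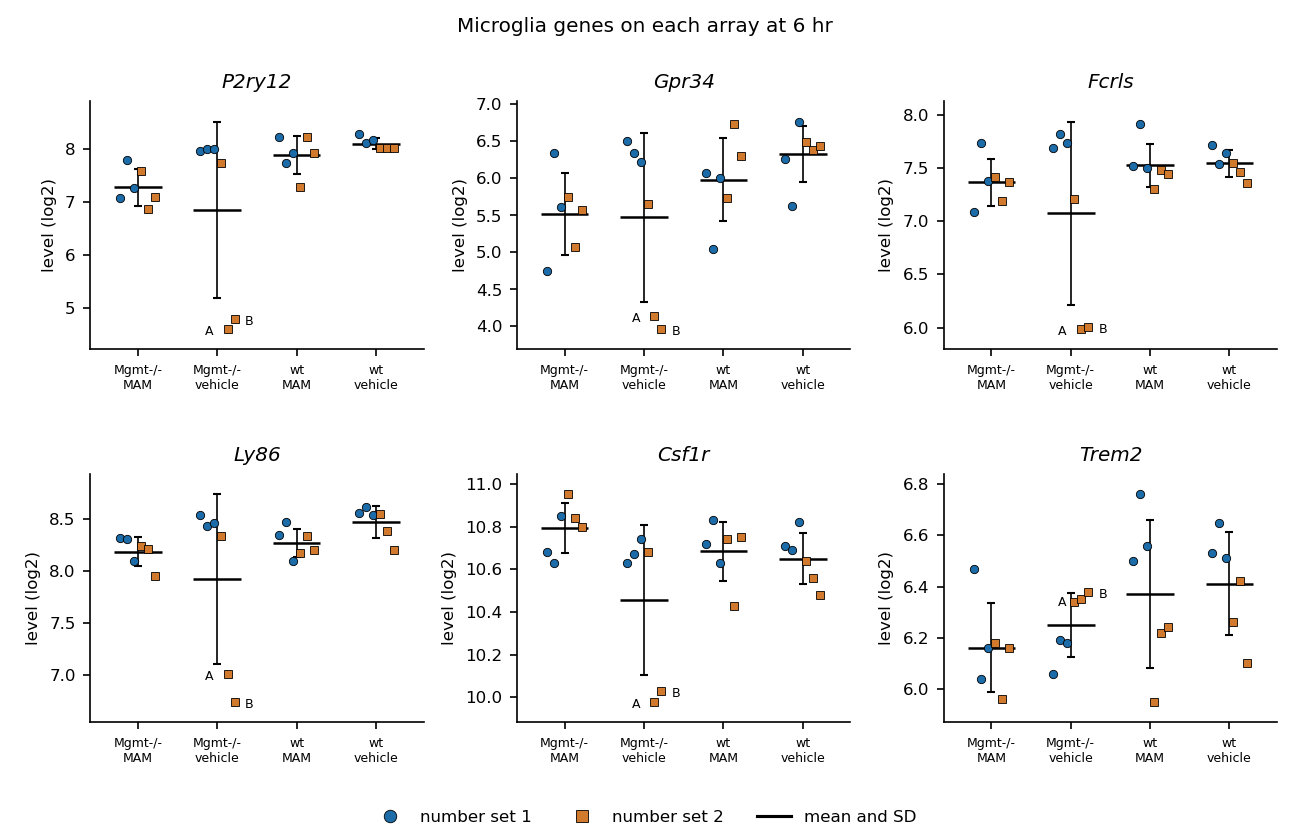
Log2 level of 6 microglia genes on each array at 6 hr, by group, with the mean and SD as a line and bar and the number sets as circles and squares. Mice A and B lie far below all other arrays for P2ry12 (4.60 and 4.78) and are low for Gpr34, Fcrls, Ly86 and Csf1r, but not for Trem2.

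The first question was what MAM did to the microglia genes of brain without Mgmt. At 168 hr most of the list stood lower after MAM. The difference of MAM minus vehicle was below 0 for 27 of the 33 genes, with a median of -0.19 on the log2 scale, against -0.01 over all genes. The medians were -0.18 in number set 1 and -0.20 in number set 2. A single gene, Olfml3, passed the test, out of 22 that passed the filter, while 0.302% of the genes tested were called lower. Without the filter Fcrls was called as well, which made 2 of 33, against 0.33% of genes. In 7 genes (P2ry12, Aif1, C1qc, Tyrobp, Fcrls, Ly86 and Olfml3) each of the 5 MAM arrays was below all 6 vehicle arrays, as were 0.879% of all genes (for C1qc the ranges met at 7.87 when rounded).

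Olfml3, a secreted olfactomedin-like matrix protein, had log2 levels of 7.19, 7.37, 7.54, 7.55 and 7.78 in Mgmt-/- MAM brain, against 7.79, 7.94 and 8.12 (lowest, median and highest of 6) in Mgmt-/- vehicle brain. In wt brain it was at 7.85, 7.92, 7.99, 8.04 and 8.19 after MAM, against 7.87, 7.95 and 8.19 after vehicle. The Mgmt-/- MAM arrays did not overlap with any other group, and the remaining groups overlapped with each other. The difference was -0.45 ± 0.08 (fit and SE; adjusted p = 0.00806), with -0.57 in number set 1 and -0.35 in number set 2. Without mouse D, which had the lowest value (7.19), the difference was -0.38, but the gene no longer passed the number-set filter and the call was lost.

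Fcrls was at 6.79, 6.87, 6.87, 6.92 and 7.21 in Mgmt-/- MAM brain, against 7.38, 7.5 and 7.78 in Mgmt-/- vehicle brain. In wt brain it was at 7.57, 7.67, 7.77, 7.77 and 8.05 after MAM and at 7.40, 7.77 and 7.98 after vehicle. The Mgmt-/- MAM arrays again lay apart from the other groups. The difference was -0.60 ± 0.10, larger in number set 1 (-0.79) than in number set 2 (-0.47). The gene did not pass the number-set filter, and its adjusted p was 0.00457 without the filter.

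Tmem119, a transmembrane protein by which microglia are told from blood-derived macrophages, was at 6.54, 6.65, 6.75, 6.78 and 6.83 in Mgmt-/- MAM brain, against 6.80, 7.09 and 7.31 in Mgmt-/- vehicle brain. A single MAM array reached into the vehicle range. The difference was -0.33 ± 0.07 with an adjusted p of 0.0287, but a fold change below 1.3, so that it was not called. In wt brain Tmem119 was at 6.91, 7.0, 7.01, 7.24 and 7.26 after MAM and at 6.86, 7.14 and 7.35 after vehicle, with full overlap.

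Among the receptors, P2ry13, an ADP receptor, was at 5.94, 6.09, 6.24, 6.40 and 6.66 in Mgmt-/- MAM brain, against 6.5, 6.73 and 6.96 in Mgmt-/- vehicle brain (difference -0.44 ± 0.12, adjusted p = 0.104). The groups overlapped in the range of the highest MAM array. P2ry12, the ADP receptor that steers microglial processes to damage, was at 6.70, 7.17, 7.18, 7.35 and 7.40 in Mgmt-/- MAM brain, against 7.54, 7.65 and 7.97 in Mgmt-/- vehicle brain (difference -0.52, adjusted p = 0.243 without the filter). These P2ry12 ranges did not overlap. In wt brain the same gene ranged widely, at 7.41, 7.53, 7.87, 8.41 and 8.71 after MAM and at 7.45, 8.10 and 8.54 after vehicle. These wt values were split by number set, at 8.41 to 8.71 in number set 1 and 7.41 to 7.87 in number set 2. All 6 receptors had differences below 0 in Mgmt-/- brain, with a median of -0.30.

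Ly86 (MD-1), a partner of the endotoxin-sensing protein RP105, was at 7.84, 7.85, 7.88, 7.94 and 8.05 in Mgmt-/- MAM brain, against 8.32, 8.42 and 8.50 in Mgmt-/- vehicle brain. The 2 groups stood apart. The wt groups, which share 1 estimate of the spread with them, were scattered, at 8.26, 8.28, 8.30, 8.79 and 9.11 after MAM and 7.98, 8.51 and 8.73 after vehicle. The difference in Mgmt-/- brain was -0.49 ± 0.14 (adjusted p = 0.118). Aif1 (Iba1), the calcium-binding protein widely used to stain microglia, was at 5.85, 5.97, 6.03, 6.13 and 6.18 in Mgmt-/- MAM brain, against 6.22, 6.42 and 6.65 in Mgmt-/- vehicle brain. Its ranges did not overlap either, and its difference of -0.37 had an adjusted p of 0.172 without the filter.

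**Figure D2:**
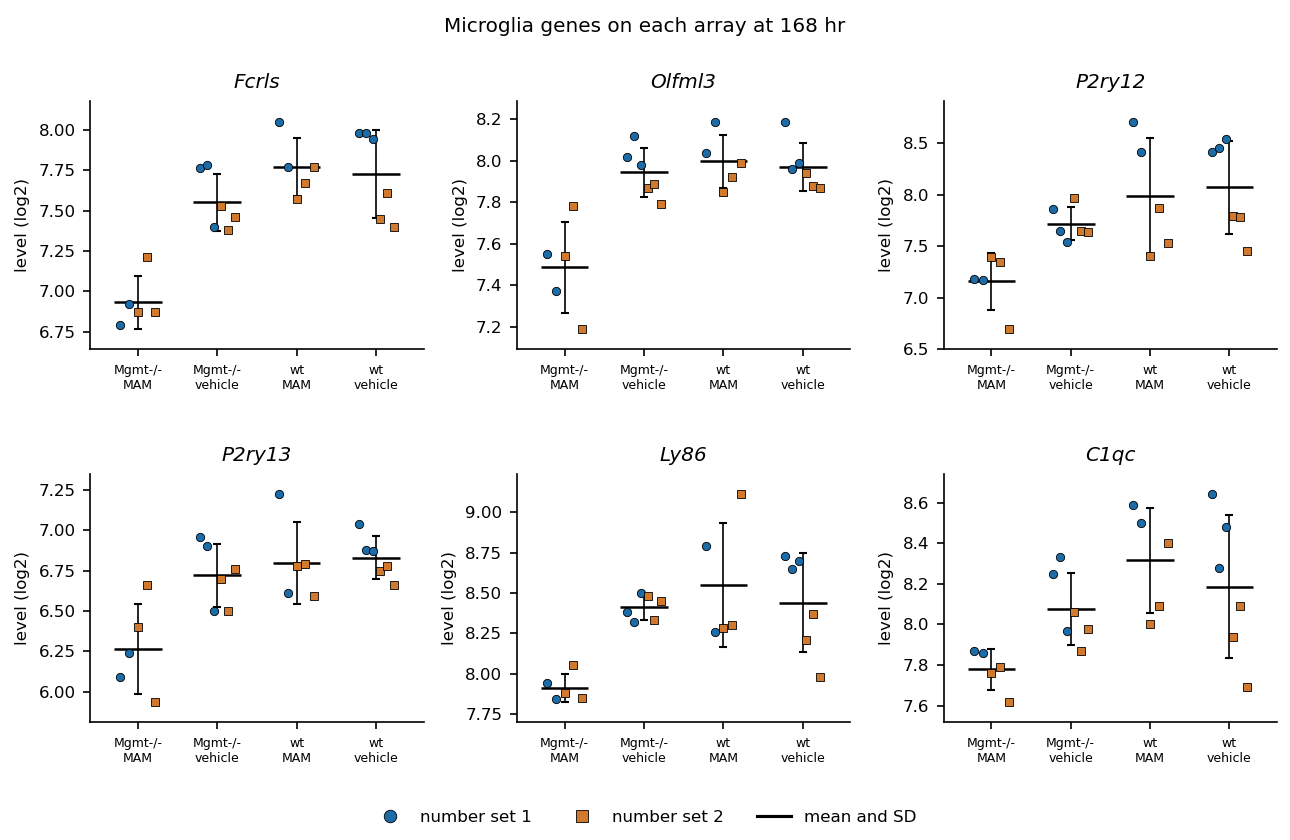
Log2 level of 6 microglia genes on each array at 168 hr, by group, with the mean and SD as a line and bar and the number sets as circles and squares. The 5 Mgmt-/- MAM arrays lie below the Mgmt-/- vehicle arrays without overlap for Fcrls, Olfml3, P2ry12, Ly86 and C1qc, while the wt groups overlap.

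By role, the differences at 168 hr were uneven. The 3 C1q chains had differences between -0.26 and -0.17 in Mgmt-/- brain, and Trem2, the Fc receptors and their adaptors a median of -0.20, with 5 of 6 below 0. The 3 lysosomal genes (Ctss, Cd68 and Laptm5) were all below 0, with a median of -0.18. The median of the innate sensing genes was 0.07 (lowest -0.49) and that of the transcription factors 0.02 (lowest -0.25), with 1 of 3 below 0 in each. Among them Irf8, Spi1 and Cd14 had dim signals, with means of 5.10, 5.45 and 5.59 over the 93 arrays. Small changes in these genes may not be seen. With the filter none of the roles in this paragraph had a called member in Mgmt-/- brain.

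In wt brain no member was called at any time, and 0.0% of genes were (limma, with or without the number-set filter; 0 members by an ordinary linear model). At an unadjusted p under 0.05 there were 2, 0, 2 and 0 of the 33 genes at 6, 24, 48 and 168 hr. Of all probe sets that passed the filter there were 990 of 17732, 1560 of 21614, 5356 of 35550 and 1285 of 32025. Over the 33 genes the medians of MAM minus vehicle were 0.01, 0.00, 0.01 and 0.04. At 168 hr the 6 smallest p values belonged to Cd68 (0.24), Cd14 (0.35), C1qc (0.16), Unc93b1 (0.13), Fcer1g (0.11) and Sall1 (-0.16), each a log2 difference with an adjusted p of 1.0, without the filter for Unc93b1. Cd14, the endotoxin co-receptor, was at 6.93 on the highest wt MAM array against a group median of 5.76. In wt vehicle brain its range was 5.37 to 5.65.

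The interaction tested whether the MAM response differed between genotypes. No member was called at any time (0 by limma with or without the filter, and 0 by the ordinary linear model), while 0.168%, 0.0605%, 0.474% and 0.101% of genes were called at 6, 24, 48 and 168 hr. At an unadjusted p under 0.05 there were 1, 5, 3 and 9 of the 33 genes at 6, 24, 48 and 168 hr. Of all probe sets that passed the filter there were 1734 of 17732, 1286 of 21614, 5927 of 35550 and 2275 of 32025. At 6 hr the median difference between the responses over the 33 genes was 0.02 with all arrays, with 14 below 0. Without mice A and B it was -0.10, with 26 of 33 below 0. At 168 hr the difference between the responses was below 0 for 29 of 33 genes, with a median of -0.24, against 0.00 over all genes. The largest were Fcrls (-0.66 ± 0.14, adjusted p = 0.118 without the filter), Ly86 (-0.61 ± 0.19, adjusted p = 0.39) and Olfml3 (-0.49 ± 0.12, adjusted p = 0.154). Other members with small p values were C1qc (-0.43, adjusted p = 0.423), Fcer1g (-0.37, adjusted p = 0.484) and Tmem119 (-0.33, adjusted p = 0.364). So the fall of Olfml3 in Mgmt-/- brain was not shown to differ from its response in wt brain.

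**Figure D3:**
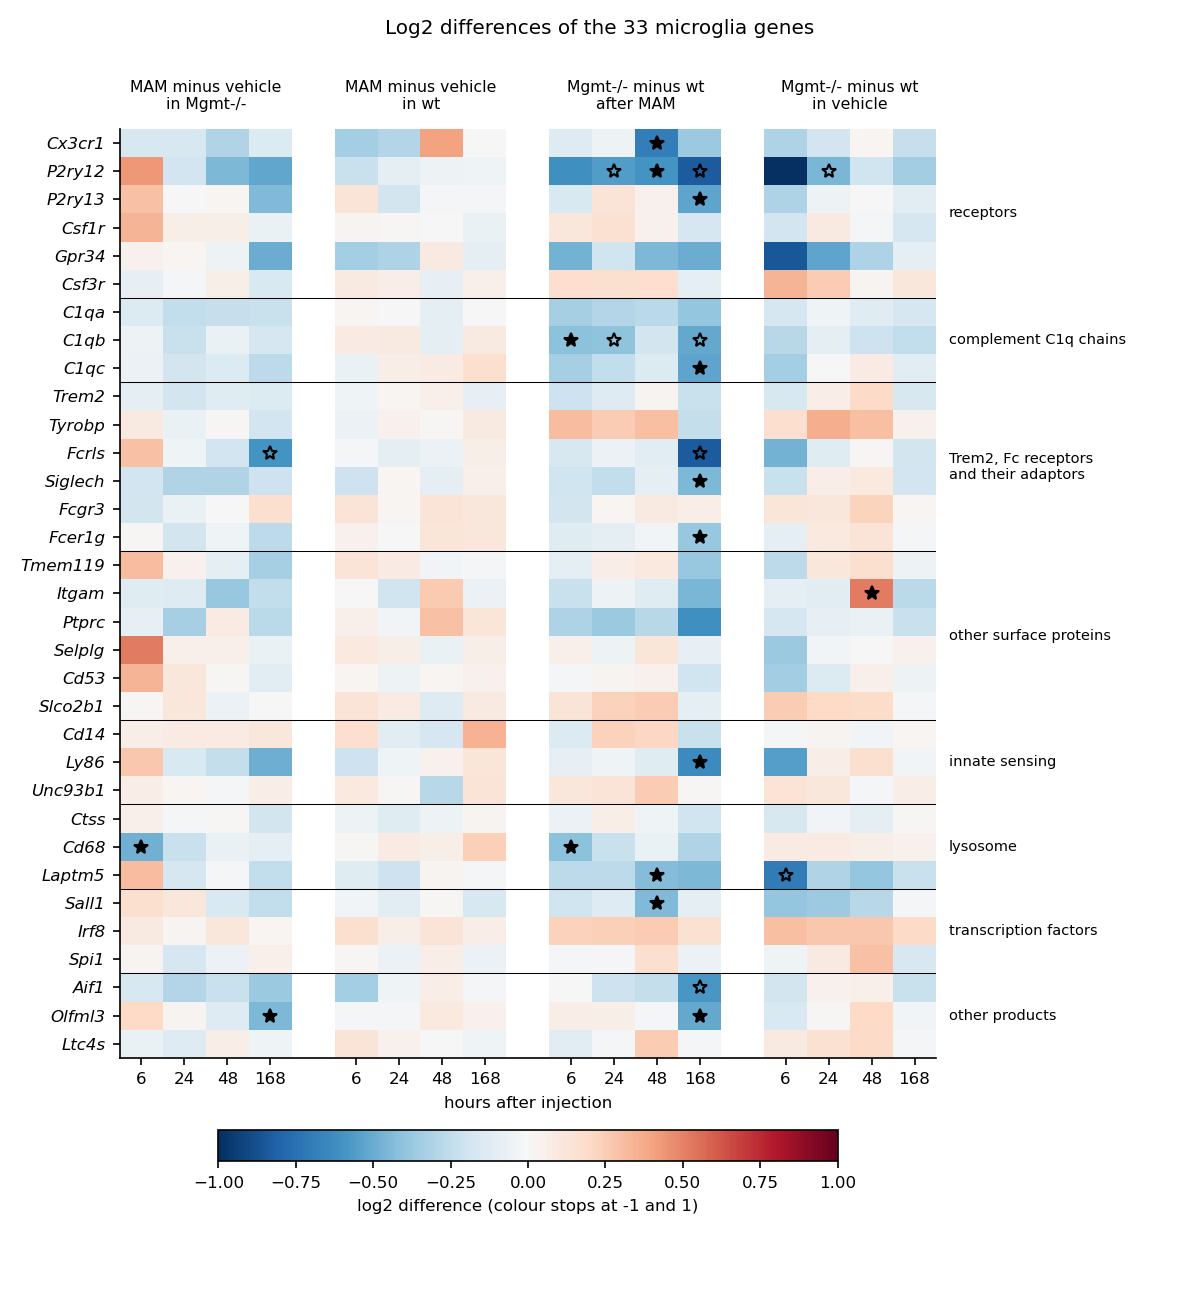
Log2 differences of the 33 genes (rows, by role) in 4 comparisons at 6, 24, 48 and 168 hr, with blue for lower and red for higher, filled stars for called genes and open stars for genes called only without the number-set filter. The 168 hr column of MAM minus vehicle in Mgmt-/- brain is blue for 27 of 33 genes, and that of Mgmt-/- minus wt after MAM for 30 of 33.

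The earlier times in Mgmt-/- brain gave smaller and less even differences. At 6 hr Cd68, a lysosomal membrane protein of phagocytes, was called lower after MAM (-0.48 ± 0.14, adjusted p = 0.0436), against 0.84% of genes called lower. Its log2 level had a lowest, median and highest value of 5.63, 5.84 and 6.32 in Mgmt-/- MAM brain, against 5.65, 6.57 and 6.70 in Mgmt-/- vehicle brain, and the ranges overlapped. In wt brain it was at 5.97, 6.15 and 6.89 after MAM and 5.91, 6.32 and 6.62 after vehicle. The adjusted p was 0.0759 without the filter, and the difference was -0.25 (adjusted p = 0.752) once the RNA index was a covariate. In 14 of 24 fits that left out 1 mouse the call was lost, with differences of -0.59 to -0.37 over the 24. The RNA index was 0.633 in Mgmt-/- MAM brain, against 0.434 in Mgmt-/- vehicle brain (exact permutation test within number sets, two-sided, adjusted p = 0.0114 over 16 comparisons), and its part beyond this covariate was not tested. It also differed at 24 hr (by 0.146, adjusted p = 0.0114) and 48 hr (by 0.117, adjusted p = 0.02) in the same test.

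The remaining genes at 6 hr turned on mice A and B. With all arrays, Csf1r, the receptor for Csf1 and Il34, had a difference of 0.34, with levels of 10.63, 10.82 and 10.95 in Mgmt-/- MAM brain against 9.98, 10.65 and 10.74 in Mgmt-/- vehicle brain. Selplg (PSGL-1, a selectin ligand) had 0.52, with 7.65, 7.80 and 8.07 after MAM, against 6.22, 7.68 and 7.86 after vehicle. For both genes the gap lay at the low end of the vehicle group.
Cd53, a tetraspanin (0.34, with 6.55, 6.81 and 7.24 after MAM, against 5.42, 6.74 and 7.15 after vehicle), and Tmem119 (0.31, with 6.72, 7.05 and 7.24 after MAM, against 5.93, 7.02 and 7.16 after vehicle) had the same shape. Siglech, a sialic acid-binding lectin of microglia, differed by -0.19, with 6.16, 6.26 and 6.64 after MAM, against 6.20, 6.57 and 6.74 after vehicle. None of these 5 genes passed the filter, and without it their lowest adjusted p was 0.114. Without the 2 arrays, an alternative chosen after seeing the data, the median of the 33 differences was -0.12 in place of 0.04, and 21 of 33 were below 0 in place of 13. P2ry12 then had a difference of -0.60 ± 0.16 and was called (adjusted p = 0.0397), where all arrays gave 0.43. Cd68 kept its call (-0.49, adjusted p = 0.0406). In the same fit the differences were 0.12 for Csf1r, 0.08 for Selplg, 0.00 for Cd53, -0.04 for Tmem119 and -0.31 for Siglech, none of them called.

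At 24 hr none of the 33 genes was called in Mgmt-/- brain (limma, 6 at an unadjusted p under 0.05, 0 by the ordinary linear model), against 0.509% of genes. The median difference was -0.07. An unadjusted p under 0.05 was reached by 2423 of the 21614 probe sets that passed the filter. Aif1 was at 6.03, 6.23 and 6.37 in MAM brain, against 6.23, 6.57 and 6.74 in vehicle brain (-0.29, adjusted p = 0.114). Siglech was at 6.31, 6.41 and 6.71 after MAM, against 6.55, 6.79 and 6.87 after vehicle (-0.30, adjusted p = 0.117). Both pairs of ranges overlapped in part. The C1q chains, which start the classical complement pathway, had differences of -0.25 for C1qa (8.27, 8.62 and 8.91 after MAM, against 8.69, 8.87 and 9.12 after vehicle), -0.18 for C1qc (7.71, 8.06 and 8.28 after MAM, against 7.83, 8.24 and 8.45 after vehicle) and -0.22 for C1qb (8.30, 8.74 and 9.11 after MAM, against 8.71, 8.94 and 9.24 after vehicle). Trem2, at 6.17, 6.26 and 6.34 after MAM, against 6.34, 6.40 and 6.69 after vehicle, was the single member whose arrays were all below the vehicle arrays (0.852% of all genes were so), meeting at 6.34 when rounded, with a difference of -0.18 (adjusted p = 0.413).

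At 48 hr none was called either (limma, 5 at an unadjusted p under 0.05, 0 by the ordinary linear model), against 0.19% of genes, and the median difference was -0.06. An unadjusted p under 0.05 was reached by 3119 of the 35550 probe sets that passed the filter. Among the members P2ry12 had the smallest p (-0.45, adjusted p = 0.33), at 6.72, 7.68 and 7.93 in Mgmt-/- MAM brain against 7.81, 8.0 and 8.25 in Mgmt-/- vehicle brain. A single MAM array, the highest, reached into the vehicle range.
Siglech differed by -0.30 (5.83, 6.52 and 6.67 after MAM, against 6.43, 6.74 and 7.08 after vehicle), and Itgam, the integrin chain CD11b, by -0.38 (4.61, 5.23 and 5.53 after MAM, against 5.19, 5.53 and 6.10 after vehicle). C1qa differed by -0.23 (8.27, 8.56 and 8.67 after MAM, against 8.31, 8.80 and 9.01 after vehicle) and Ly86 by -0.24 (8.04, 8.26 and 8.6 after MAM, against 8.14, 8.55 and 8.76 after vehicle). Cx3cr1, the fractalkine receptor, differed by -0.30 (6.66, 7.52 and 7.84 after MAM, against 7.43, 7.81 and 7.93 after vehicle). All 5 pairs of ranges overlapped.

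The mean level of the 33 genes put the times side by side. At 168 hr it was 6.93 ± 0.08 in Mgmt-/- MAM, 7.14 ± 0.08 in Mgmt-/- vehicle, 7.26 ± 0.18 in wt MAM and 7.23 ± 0.17 in wt vehicle brain (SD, n = 5, 6, 5 and 6). At 6 hr it was 7.0 ± 0.13 in Mgmt-/- MAM, 6.94 ± 0.41 in Mgmt-/- vehicle, 7.12 ± 0.14 in wt MAM and 7.14 ± 0.08 in wt vehicle brain (n = 6 each). Mice B and A had the lowest means of all 93 arrays (6.36 and 6.5), followed by a Mgmt-/- MAM mouse at 168 hr (mouse D, 6.81). At 24 and 48 hr the group means lay within 7.10 to 7.20.

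**Figure D4:**
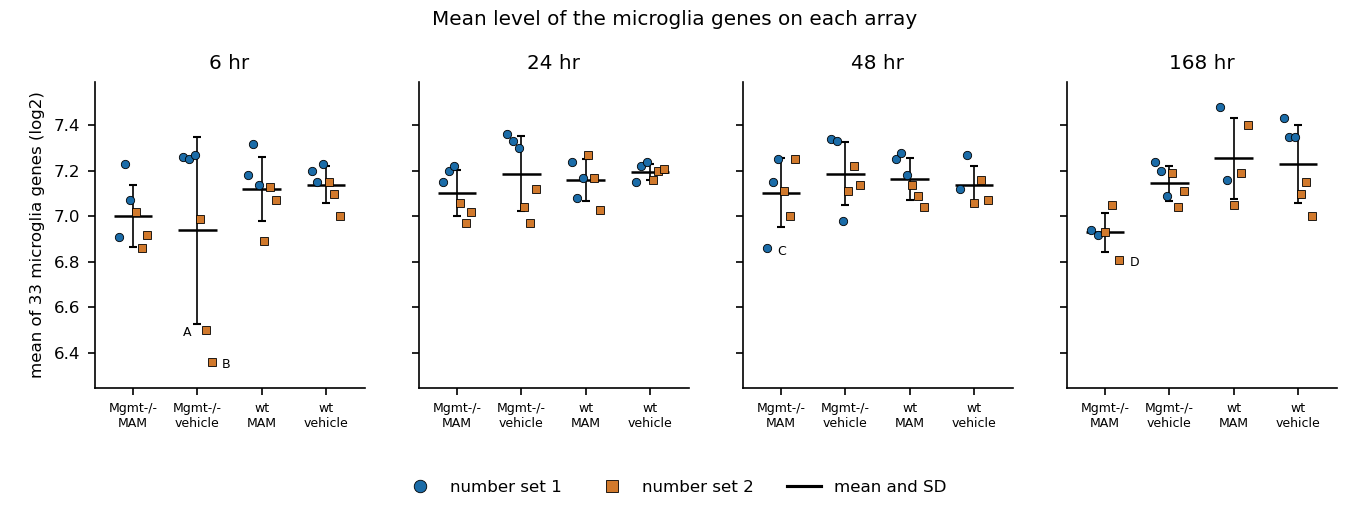
Mean log2 level of the 33 microglia genes on each array, by group and time, with the mean and SD of each group as a line and bar and the number sets as circles and squares. Mice A and B lie below the rest at 6 hr, and at 168 hr the Mgmt-/- MAM group (6.93 ± 0.08) has the lowest mean.

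The genotypes were compared after MAM and after vehicle, using some of the same arrays as above. After MAM at 168 hr, 6 of the 22 members that passed the filter were called lower in Mgmt-/- brain, against 1.13% of genes, and without the filter 10 of 33, against 1.65%. The difference of Mgmt-/- minus wt was below 0 for 30 of 33 genes, with a median of -0.37 (-0.32 in number set 1 and -0.30 in number set 2), against 0.02 over all genes. The called members were Ly86 (-0.64, adjusted p = 0.0165), C1qc (-0.53, adjusted p = 0.00564), P2ry13 (-0.53, adjusted p = 0.0234), Olfml3 (-0.51, adjusted p = 0.00168), Siglech (-0.45, adjusted p = 0.012) and Fcer1g (-0.38, adjusted p = 0.0343). Without the filter P2ry12 (-0.83, adjusted p = 0.013), Fcrls (-0.83, adjusted p = 0.000112), Aif1 (-0.58, adjusted p = 0.00749) and C1qb (-0.51, adjusted p = 0.0113) joined them. For P2ry12 the gap was wider in number set 1, at 7.17 and 7.18 in Mgmt-/- MAM brain against 8.41 and 8.71 in wt MAM brain. In number set 2 the gene was at 6.70 to 7.40 in Mgmt-/- MAM brain against 7.41 to 7.87 in wt MAM brain. In 9 genes no Mgmt-/- MAM array reached the wt MAM arrays, as in 2.67% of all genes.

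Other measures were compared between the same groups. After MAM the RNA index was higher in Mgmt-/- than in wt brain by 0.255, 0.236 and 0.209 at 6, 24 and 48 hr (exact permutation test within number sets, adjusted p = 0.0114 each) and by 0.078 at 168 hr (adjusted p = 0.0615). In the same comparison at 168 hr the 21 glucocorticoid-responsive genes had a median difference of 0.46, with 9 called higher. The 15 oligodendrocyte genes had -0.22, with 2 called lower, against 1.13% of all genes tested. The monocyte and neutrophil genes had -0.59, with 0 called. The share of all genes called higher is not given here, and the lists were chosen with earlier results of these data known. Axl, a receptor of activated microglia, was called lower (-0.53, adjusted p = 0.0109), and Serping1, the C1 inhibitor, higher (0.42, adjusted p = 0.0398). Their part in the microglia result was not tested.

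Values after MAM at 168 hr show how far the genotypes were apart. C1qc was at 7.62, 7.76, 7.79, 7.86 and 7.87 in Mgmt-/- MAM brain and at 8.0, 8.09, 8.40, 8.50 and 8.59 in wt MAM brain, with no overlap. Siglech was at 5.98, 6.15, 6.27, 6.53 and 6.53 in Mgmt-/- MAM brain, against 6.60, 6.69, 6.71, 6.80 and 6.93 in wt MAM brain, also with no overlap. Fcer1g, the signalling chain shared by Fc receptors, was at 6.69, 6.87, 6.96, 7.09 and 7.18 in Mgmt-/- MAM brain, against 7.10, 7.24, 7.31, 7.45 and 7.61 in wt MAM brain, and these ranges met. C1qb was at 8.56, 8.58, 8.64, 8.69 and 8.72 in Mgmt-/- MAM brain, against 8.85, 9.02, 9.08, 9.39 and 9.42 in wt MAM brain. Of the other probe sets of C1qb, 2 gave differences of -0.17 and -0.04, so that the size of this gene's change depended on the probe set. The called count was 3 without 1 wt MAM mouse (C1qc, Olfml3 and Siglech) and 3 without another (Olfml3, P2ry13 and Siglech). This last mouse had the highest S100a8 (9.53) and S100a9 (9.79) of the 93 arrays, both neutrophil proteins, and its monocyte and neutrophil median was 6.38, against 4.60 to 5.24 on the other 4 wt MAM arrays. It also had the highest Ly86 (9.11), Fcer1g (7.61) and Ptprc (6.44) of its group. Without it the difference was -0.48 for Ly86, -0.48 for C1qc and -0.30 for Fcer1g, none of them called, and the part of its neutrophil transcripts was not tested further.

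At the earlier times after MAM, fewer members were called between genotypes. At 6 hr C1qb (-0.41, adjusted p = 0.00204) and Cd68 (-0.41, adjusted p = 0.0413) were called lower in Mgmt-/- brain, 2 of 8 that passed the filter, against 3.13% of genes. C1qb was at 8.44, 8.63 and 9.02 in Mgmt-/- MAM brain, against 8.78, 9.08 and 9.49 in wt MAM brain, and the ranges overlapped. The next probe set of C1qb gave -0.10 (adjusted p = 0.646) and another 0.08, so that the direction at 6 hr rested on the probe set used. With the RNA index as a covariate neither gene was called, at -0.50 (adjusted p = 0.142) for C1qb and -0.12 (adjusted p = 0.887) for Cd68. At 24 hr none was called (limma, 11 at an unadjusted p under 0.05, 0 by the ordinary linear model), against 4.08% of genes. An unadjusted p under 0.05 was reached by 5345 of the 21614 probe sets that passed the filter. Without the filter P2ry12 (-0.56, adjusted p = 0.00236) and C1qb (-0.40, adjusted p = 0.00928) were called, 2 of 33 against 3.02% of genes called lower, though the other probe sets of C1qb gave -0.07 and 0.16. P2ry12 was then at 7.42, 7.51 and 7.76 in Mgmt-/- MAM brain and at 7.93, 8.04 and 8.53 in wt MAM brain, with no overlap.

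At 48 hr Cx3cr1 (-0.69, adjusted p = 0.00455), P2ry12 (-0.60, adjusted p = 0.0109), Sall1 (-0.44, adjusted p = 0.0176) and Laptm5 (-0.43, adjusted p = 0.0101) were called lower in Mgmt-/- brain after MAM, 4 of 32, against 4.52% of genes. The median over the 33 genes was -0.03. Cx3cr1 was at 6.66, 7.52 and 7.84 in Mgmt-/- MAM brain, against 7.93, 8.13 and 8.36 in wt MAM brain, with no overlap. P2ry12 was at 6.72, 7.68 and 7.93 in Mgmt-/- MAM brain, against 7.91, 8.11 and 8.36 in wt MAM brain. Laptm5, a lysosomal transmembrane protein of leukocytes, was at 7.40, 7.79 and 8.28 in Mgmt-/- MAM brain, against 8.14, 8.22 and 8.32 in wt MAM brain, and its next probe set gave -0.01. For Sall1, at 6.12, 6.58 and 7.17 in Mgmt-/- MAM brain, against 6.93, 7.10 and 7.26 in wt MAM brain, another probe set gave 0.11, so that the direction rested on the probe set used. A Mgmt-/- MAM mouse at 48 hr (mouse C), with a member mean of 6.86, had a glucocorticoid-responsive median of 9.25 and an oligodendrocyte median of 8.73, and without it Cx3cr1 alone was called. With the RNA index, which differed by 0.209 between these groups, as a covariate, none of the 4 was called. The differences were then -0.42 for Cx3cr1 (adjusted p = 0.553), -0.54 for P2ry12 (adjusted p = 0.422), -0.52 for Sall1 (adjusted p = 0.3) and -0.29 for Laptm5 (adjusted p = 0.565).

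In vehicle brain few members were called between genotypes. The RNA index was higher in Mgmt-/- than in wt vehicle brain by 0.12, 0.154, 0.093 and 0.179 at 6, 24, 48 and 168 hr. The adjusted p was 0.0114 at 6 and 24 hr and 0.0267 at 48 and 168 hr (exact permutation test within number sets). Its part beyond the covariate fit was not tested. At 6 hr none was called (limma, 13 at an unadjusted p under 0.05, 0 by the ordinary linear model), against 2.31% of genes, and the median was -0.17, or 0.02 without mice A and B. Laptm5 was called without the filter (-0.70, adjusted p = 0.0419, against 2.15% of genes called lower), at 6.49, 7.78 and 8.17 in Mgmt-/- vehicle brain against 7.92, 8.12 and 8.37 in wt vehicle brain (-0.23 without mice A and B). Csf3r, the G-CSF receptor, had 0.34 (0.26 without mice A and B) and C1qc -0.34 (-0.17 without them). At 24 hr none was called (limma, 6 at an unadjusted p under 0.05, 0 by the ordinary linear model), against 3.1% of genes, and P2ry12 was called without the filter (-0.46, adjusted p = 0.0148; 7.32, 7.77 and 8.08 in Mgmt-/- vehicle brain, against 7.98, 8.23 and 8.33 in wt vehicle brain), against 2.65% of genes called lower. At 48 hr Itgam was called higher in Mgmt-/- brain (0.52, adjusted p = 0.0475), 1 of 32 against 1.12% of genes, at 5.19, 5.53 and 6.10 in Mgmt-/- vehicle brain and 4.64, 5.07, 5.12, 5.13 and 5.21 in wt vehicle brain. That call was lost in 18 of 23 fits without 1 mouse, with differences of 0.42 to 0.59 over the 23. At 168 hr none was called (limma, 4 at an unadjusted p under 0.05, 0 by the ordinary linear model), against 0.0773% of genes. The smallest p values were those of C1qb (-0.25), Siglech (-0.19) and P2ry12 (-0.35), and the median was -0.05. Of all probe sets that passed the filter, 3871 of 17732 at 6 hr had an unadjusted p under 0.05 between vehicle groups. At 24 hr there were 5219 of 21614, and at 168 hr 3227 of 32025.

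Across the 4 times of vehicle brain no member was called in either genotype (limma F test, 0 of 33; 0 genes in Mgmt-/- and 0.137% of genes in wt). At an unadjusted p under 0.05 there were 15 members in Mgmt-/- brain, or 2 without mice A and B, and 3 in wt brain.

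None of the 12 ligands and survival signals of microglia was called at 168 hr. In Mgmt-/- brain MAM minus vehicle was -0.05 for Csf1 and -0.03 for Il34, the ligands of Csf1r. It was -0.07 for Cx3cl1, the ligand of Cx3cr1, -0.04 for Tgfb1, on which the resting state depends, and 0.08 for Cd200, a neuronal signal that restrains microglia. The ranges of the groups overlapped for all 5. Csf1, for example, lay at 7.27 to 7.5 in Mgmt-/- MAM, 7.28 to 7.62 in Mgmt-/- vehicle, 7.23 to 7.40 in wt MAM and 7.23 to 7.47 in wt vehicle brain. Earlier, Il34 was lower in Mgmt-/- than in wt brain after MAM, at 6.49 to 6.74 in Mgmt-/- MAM brain against 6.92 to 7.26 in wt MAM brain at 6 hr (-0.53, adjusted p = 0.0014 without the filter, which it did not pass), and by -0.40 at 24 hr (adjusted p = 0.00281 without the filter). In vehicle brain Il34 was lower in Mgmt-/- than in wt as well, by -0.26 at 6 hr and -0.30 at 24 hr (adjusted p = 0.164 and 0.0276 without the filter), and was not called. The difference of MAM minus vehicle in Mgmt-/- brain at 6 hr was -0.31 for Il34 and was not called. Its interaction was -0.28 at 6 hr and -0.10 at 24 hr, also not called. Cd200 differed between genotypes in vehicle brain by -0.43 at 6 hr (adjusted p = 0.0374 without the filter) and -0.33 at 24 hr. Csf2 was called higher in Mgmt-/- than in wt brain after MAM at 48 hr (0.43, adjusted p = 0.0498).

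Other lists were measured beside the members at 168 hr. A further 30 genes of resting microglia (Tgfbr1, P2ry6 and others) had a median of 0.00 for MAM minus vehicle in Mgmt-/- brain, with 15 below 0 and 1 called higher (Mertk, a phagocytic receptor that also stands in the glucocorticoid-responsive list, 0.43, adjusted p = 0.0414). The 23 genes of activated and phagocytic microglia had 0.01, with 0 called, and the 10 complement genes 0.05, with 0 called. The 6 MHC class II genes had a median of -0.28, with 5 below 0 and 0 called. Perivascular macrophage genes had 0.03 and those of monocytes and neutrophils 0.07, with 0 called in each.

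Markers of other cells and of stress were read from the same arrays. The lists were chosen with earlier results of these data known, and the share of all genes called higher is not given here. The 21 glucocorticoid-responsive genes had a median difference of 0.42 in Mgmt-/- brain at 168 hr. Of these, 9 were called higher, led by Sult1a1 (1.67), Sgk1 (1.57), Plin4 (1.24) and Fkbp5 (0.94). Their median level lay at 8.02 to 9.18 on the Mgmt-/- MAM arrays, 7.65 to 8.28 in Mgmt-/- vehicle, 7.87 to 8.32 in wt MAM and 7.71 to 8.01 in wt vehicle brain. The 15 oligodendrocyte genes had a median difference of -0.12, with 2 called lower (Ugt8a, -0.79, and Opalin, -0.59), against 0.302% of all genes tested. Their median level was 9.04 to 9.60 in Mgmt-/- MAM, 9.28 to 9.75 in Mgmt-/- vehicle, 9.62 to 9.70 in wt MAM and 9.58 to 9.87 in wt vehicle brain. In the list of 15 astrocyte genes the called genes went opposite ways, with Gjb6 higher (0.48) and Aqp4 lower (-0.52). Slc2a1 (0.39) was the only called gene of 14 in the endothelial list, and Alas2 (-0.62) the only one of 3 in the red cell list. These genes do not stand for their lists, and neurons had a median of -0.04. The RNA index differed by -0.032 between Mgmt-/- MAM and Mgmt-/- vehicle brain at 168 hr (exact permutation test within number sets, adjusted p = 0.704). The number sets went in opposite directions, with -0.16 in number set 1 and 0.087 in number set 2. The part of the other lists in the microglia result was not tested.

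**Figure D5:**
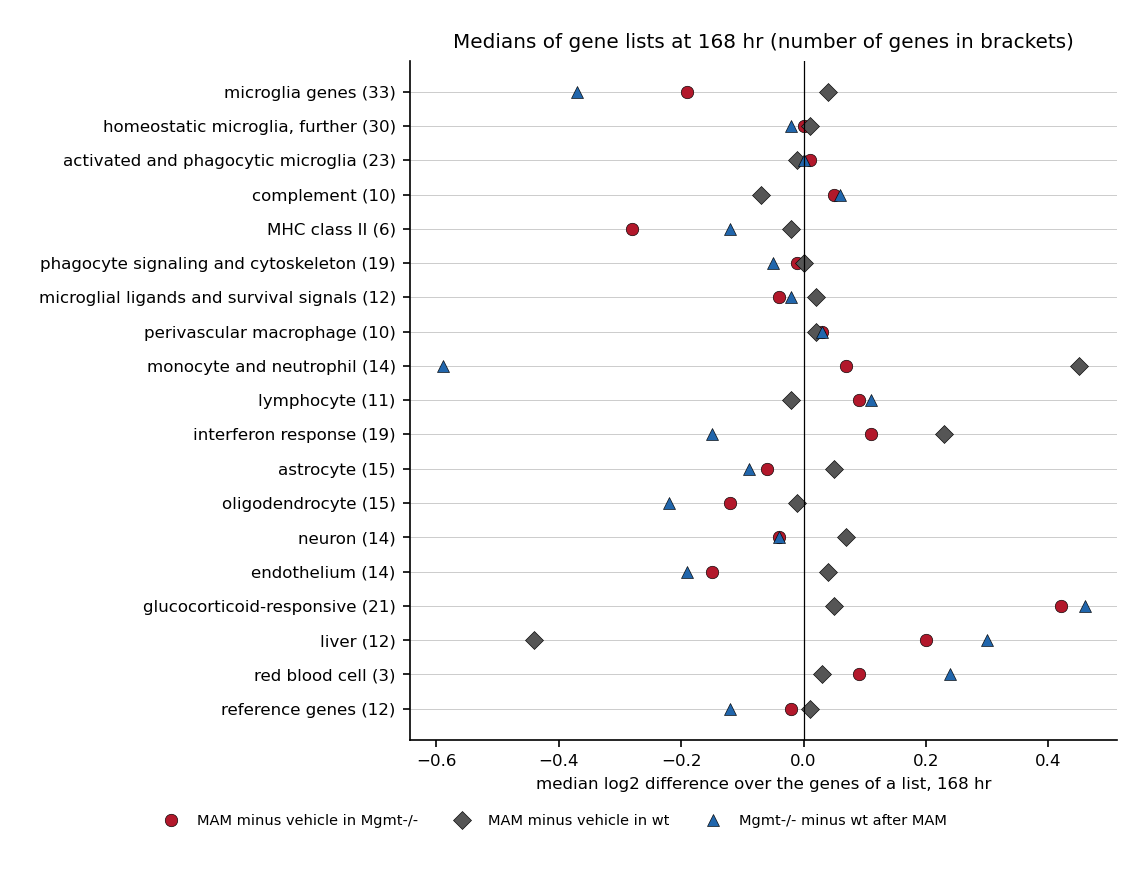
Median log2 difference at 168 hr over each gene list (rows, number of genes in brackets) for MAM minus vehicle in Mgmt-/- brain (circles), MAM minus vehicle in wt brain (diamonds) and Mgmt-/- minus wt after MAM (triangles). The microglia genes stand at -0.19, 0.04 and -0.37, and the glucocorticoid-responsive genes are the list farthest above 0 in Mgmt-/- brain (0.42).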

How the data were processed

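Affymetrix mouse genome arrays measured brain RNA of 94 mice. The authors normalized the arrays with RMA (R package affy, versions not given in the sources used here), and the deposited values are log2 levels per probe set. Whether all arrays were normalized together is not given. A Mgmt-/- MAM array at 168 hr that carried liver RNA was left out. Groups came from the sample titles. Each time was fitted alone in limma 3.58.1 (R 4.3.3) over all 45101 probe sets, with genotype, agent, their interaction and number set. A probe set was tested if its 3 interactions with number set, tested jointly, had p above 0.15 in an F test, and p values were Benjamini-Hochberg adjusted over all kept probe sets. Calls needed an adjusted p under 0.05 and a fold above 1.3. Per group, 5 or 6 mice limit the precision. The RNA index was compared by exact permutation within number sets. For MAM minus vehicle and the interaction, the members described were called or had small p values. At 168 hr the values of single arrays are mostly given for the MAM groups, with the lowest, median and highest of the vehicle groups. At the other times the lowest, median and highest are mostly given. In comparisons of genotypes the called members are named, else 3. The members and gene lists were chosen with earlier results of these data known. The fit was tested on simulated data. Alternatives were no number-set filter, an ordinary linear model, no fold threshold, the RNA index as covariate, each number set alone, cyclic loess, a mean of at least 6, all probe sets of a gene, 1 fit of all groups, the liver array included and each mouse left out.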

Additional observations from a re-analysis of the deposited data

Results flagged for a closer look

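Of 96 groups of 4 to 10 arrays tested for a single array far from the rest, 2 had one, and chance alone flags about 1 in 20. P2ry12 in wt MAM brain at 24 hr stood at 8.53 in 1 mouse, above 7.93 to 8.15 on the other arrays (gap over range 0.634). Itgam in wt vehicle brain at 48 hr stood at 4.64 in 1 mouse, below 5.07 to 5.21 on the other arrays (gap over range 0.745). The Itgam array lies in the group against which the gene was called higher in Mgmt-/- vehicle brain. Mice A and B of the 6 hr Mgmt-/- vehicle group were not singled out in this way, since they lay close to each other.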

How the results depend on the processing

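No paired analysis was possible because each mouse had its own animal number and no number was shared between groups. Among the alternatives run, 47 moved a count of called members by over 1.5 times and 6 moved a median by more than the spread between mice, and those that did are given here. Over the alternatives at 168 hr the median lay at -0.21 to -0.13 for MAM minus vehicle in Mgmt-/- brain, -0.31 to -0.16 for the interaction and -0.38 to -0.23 for Mgmt-/- minus wt after MAM.

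For MAM minus vehicle in Mgmt-/- brain at 6 hr, 1 member was called. The count was 0 without the filter, by the ordinary linear model, with the RNA index and in number set 1, 8 in number set 2, 2 without mice A and B (chosen after seeing the data) and 2 in 1 fit of all groups. In number set 2 the Mgmt-/- vehicle group at 6 hr held 3 arrays, mice A and B among them. That number set was not fitted without these mice. At 168 hr, with 1 called, it was 2 without the filter, without the fold threshold and for number set 2, and 0 for number set 1 and with the liver array. In wt brain at 24 hr number set 2 gave 1 (Cx3cr1). The interaction median at 48 hr (-0.13) was 0.00 in number set 2.

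For Mgmt-/- minus wt in vehicle brain at 6 hr, with 0 called, no filter gave 1, number set 1 1, number set 2 17 and 1 fit of all groups 5, and the median (-0.17) was 0.10 in number set 1. The 17 calls in number set 2 come from a fit in which mice A and B were among the 3 Mgmt-/- vehicle arrays. The 1 fit of all groups held them too. At 24 hr, with 0 called, no filter gave 1 and number set 2 7, and the median (0.03) was -0.10 in number set 2. At 48 hr, with 1 called, the ordinary model, either number set and 1 fit gave 0, the RNA index 2 and loess 2. At 168 hr number set 1 gave 1 (P2ry12), and the median (-0.05) was -0.23 in number set 1.

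After MAM the genotypes at 6 hr (2 called) gave 1 without the filter, by the ordinary model and with loess, 4 without the fold threshold, and 0 with the RNA index and in number set 1. At 24 hr (0 called) no filter gave 2, number set 2 7, and no fold threshold, number set 1 and 1 fit 1 each. At 48 hr (4 called) no fold threshold gave 7, number set 2 and loess 2 each, and the RNA index (Tyrobp), number set 1 and 1 fit 1 each, and the median (-0.03) was 0.14 with the RNA index. At 168 hr (6 called) no filter gave 10, number set 1 2, number set 2 3 and the liver array included 1, with a median of -0.23 in place of -0.37. Sall1 at 48 hr was reversed with its other probe set (0.11). The cause of these shifts was not tested.

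Leaving out 1 mouse gave counts of 0 to 1 at 6 hr and 0 to 2 at 168 hr for MAM minus vehicle in Mgmt-/- brain, 0 without mouse D and 2 without another Mgmt-/- MAM mouse at 168 hr. It gave 0 to 1 for the interaction at 48 and 168 hr (Cx3cr1 without a wt vehicle mouse, Olfml3 without a Mgmt-/- MAM mouse), and for genotypes in vehicle brain 0 to 1 at 6 hr and 0 to 2 at 48 hr. After MAM it gave 0 to 3 at 6 hr, 1 to 5 at 48 hr (1 without mouse C) and 3 to 8 at 168 hr, with a median of -0.40 to -0.24. Olfml3 at 168 hr lost its call in number set 1 (-0.57, adjusted p = 0.311), in number set 2 (-0.35, adjusted p = 0.119), with the liver array (-0.54, adjusted p = 0.0649) and in 1 fit of all groups (-0.44, adjusted p = 0.196), against -0.45 in the fit reported. Dim probe sets limit what can be seen of Irf8, Ptprc, Csf3r, Itgam, Spi1 and Cd14.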

Other observations

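An array labelled Mgmt-/- MAM at 168 hr, left out of the comparisons, carried liver RNA, with log2 levels of 14.05 for Alb and 14.32 for Apoa1 and of 4.50 for Snap25 and 4.97 for Mbp. Of the microglia genes not named above for this array, Cx3cr1 stood at 5.23, Ptprc at 7.54 and Cd14 at 7.55.

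In wt brain at 168 hr the 14 monocyte and neutrophil genes had a median difference of 0.45 for MAM minus vehicle, with 0 called. Their median level was 4.60, 4.82, 4.95, 5.24 and 6.38 in wt MAM brain and 4.66 to 5.08 in wt vehicle brain, so that 2 of the 5 wt MAM arrays, and 1 of them by far, lay above the vehicle range. At 6 hr in Mgmt-/- brain the liver gene Alb differed by 2.31 (adjusted p = 0.0113) between MAM and vehicle, and the liver list had median levels of 4.66 to 5.91 in Mgmt-/- MAM brain and 4.39 to 5.25 in Mgmt-/- vehicle brain.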
